A study of Mus musculus with 6 samples.

Results

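A set of 10 surface or secreted molecules through which myeloid and leukemia cells restrain or stimulate T cells and macrophages were followed across 6 mouse RNA-seq libraries: Cd274, Pdcd1lg2, Lgals9, Cd200, Sirpa, Cd47, Cd80, Cd86, Havcr2 and Vsir. The 10 genes were named by function, as a list of immune checkpoint, CD47 and costimulatory ligands, and not by a threshold on measured values. The list was chosen with earlier results of these data known. All 10 were found among the 54532 genes of the deposited table. The libraries came from C57BL/6 mice and each condition had 1 library. WT macrophages came from mice without leukemia given PBS, WT/FE macrophages from mice without leukemia given iron, MA9 macrophages and MA9 leukemia cells from mice with MLL-AF9 acute myeloid leukemia given PBS, and MA9/FE macrophages and MA9/FE leukemia cells from such mice given iron. Per the study's methods the mice were 6 to 8 weeks old, MLL-AF9 cells carried GFP and were transplanted, iron overload was induced by 6 intraperitoneal doses of 0.2 mL iron dextran at 25 mg/mL, and macrophages were sorted as GFP-negative cells by Gr-1, F4/80, CD115 and scatter. The labels give spleen as the tissue of the macrophages and bone marrow as that of the leukemia cells, whereas the methods describe bone marrow macrophages, so tissue and cell type cannot be told apart in any comparison of macrophages with leukemia cells.

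Immune checkpoints are receptor and ligand pairs that damp T cell activity. PD-L1 and PD-L2, encoded by Cd274 and Pdcd1lg2, bind PD-1 on T cells, and CD80 and CD86 bind CD28 to costimulate or CTLA-4 to inhibit. CD47 on a target cell binds SIRPα on a macrophage and holds back phagocytosis, and CD200 binds an inhibitory receptor on myeloid cells. Galectin-9, encoded by Lgals9, is a ligand of TIM-3, encoded by Havcr2, and VISTA, encoded by Vsir, is an inhibitory B7 family protein abundant on myeloid cells.

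Each condition had 1 library, so a comparison of 2 single libraries, or of the iron effect between cell groups, has no replicate check. An additive fit over all 6 libraries, chosen after the data were seen, tested iron over the 3 PBS and iron pairs, MA9 against WT macrophages over 2 pairs and leukemia cells against MA9 macrophages over 2 pairs, using limma with 1 term for the cell group and 1 for iron. It assumes the same iron effect in every cell group, and its spread, with 2 residual degrees of freedom, is the departure from additive effects and not the variation between mice. Levels are given in FPKM, fragments per kilobase of gene scaled to library depth, which can be compared between genes. Where 4 macrophage values are listed, WT comes first, WT/FE second, then MA9, with MA9/FE last, and where 2 leukemia cell values are listed, the PBS library comes before the iron library. Differences are given as a ratio of reads after TMM scaling, a trimmed mean correction for library composition, with an exact 95% interval that covers counting error only and not the variation between mice. A gene was counted as higher or lower where log2(FPKM + 1) differed by a fold of at least 2 and at least 1 of the 2 libraries held 10 reads. The depth recovered from the FPKM values was 16085346 to 19518359 reads per library.

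The macrophage libraries held more reads on B cell genes than on macrophage genes. The 16 B cell markers took 0.515% to 0.803% of reads in the 4 macrophage libraries and 0.0060% to 0.0062% in the leukemia cell libraries, while the 17 macrophage markers took 0.157% to 0.333% and 0.0831% to 0.0862%. No B cell marker was at 0 in any of the 6 libraries. The 10 dendritic cell markers took 0.123% to 0.174% of reads in macrophage libraries and 0.0194% to 0.0235% in leukemia cells. B cells and dendritic cells also express several of the 10 genes, Cd80, Cd86, Cd200 and Cd274 among them, and their part in the levels of the macrophage libraries was not tested. In these bulk samples fewer cells of a type and less RNA per cell cannot be told apart. Adgre1, which encodes the F4/80 antigen of the sort, stood at 40.1, 54.5, 32.2 and 52.4 FPKM in the macrophage libraries and at 28.6 and 27.5 in the leukemia cells, and Hoxa9, a target of MLL-AF9, at 0.12, 0.13, 0.79 and 0.72 and at 40.6 and 41.0. The 11 MLL-AF9 leukemia markers took 0.252% and 0.283% of reads in the leukemia cell libraries against 0.0524% to 0.0723% in the macrophage libraries.

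**Figure D1:**
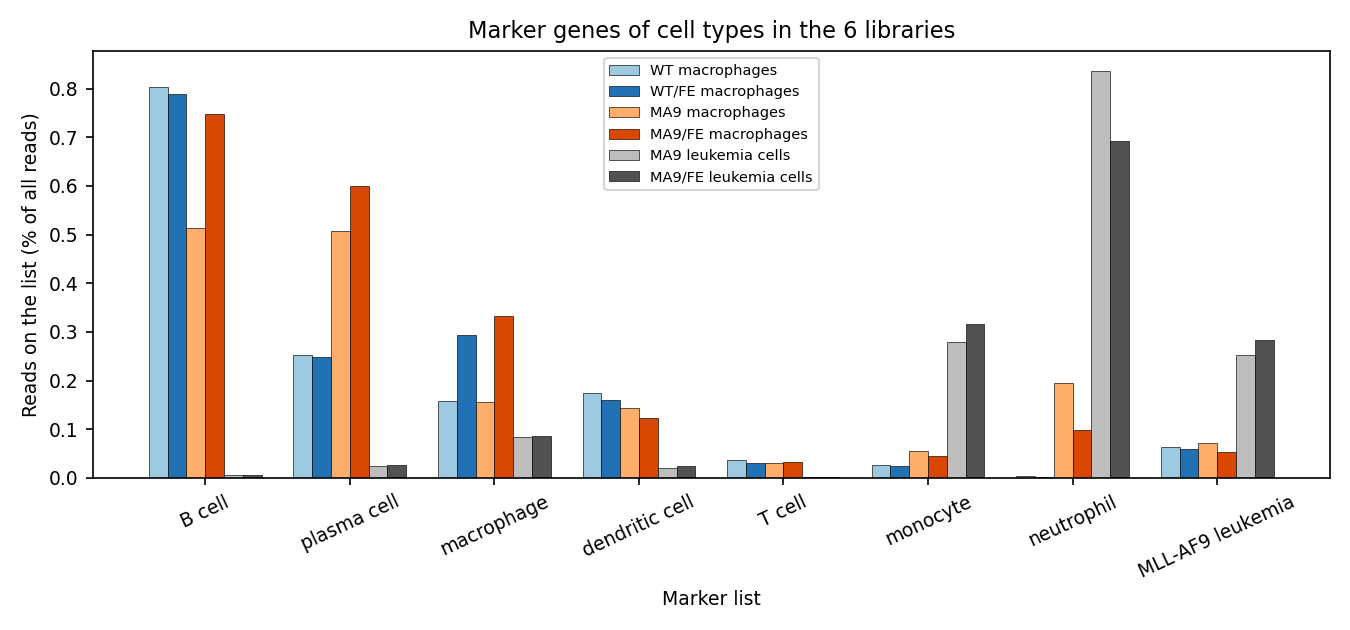
Share of all reads on each list of cell type markers (y axis, percent) in the 6 libraries, with 1 bar per library. In the 4 macrophage libraries the B cell bar, 0.515% to 0.803%, stood above the macrophage bar, 0.157% to 0.333%, and in both leukemia cell libraries the neutrophil bar was the highest, at 0.693% to 0.836%.

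RefSeq promoter windows (GRCm38.p6) were found for 8 of the 10 genes, and Sirpa and Cd86 had no entry. The 250 bases before the RefSeq start are shown, 5′ to 3′ on the strand of the gene, for 4 genes that were low in leukemia cells (Cd274, Pdcd1lg2, Cd200, Havcr2) and for 2 that were high there (Cd47, Lgals9). Capitals mark matches, on either strand, to GAGGAA (an ETS core), a paired GAAA motif of interferon response elements (GAAA, 2 bases of any kind, GAAA) and GGGCGG (a GC box).
Cd274 (chr19:29367188-29367437, + strand): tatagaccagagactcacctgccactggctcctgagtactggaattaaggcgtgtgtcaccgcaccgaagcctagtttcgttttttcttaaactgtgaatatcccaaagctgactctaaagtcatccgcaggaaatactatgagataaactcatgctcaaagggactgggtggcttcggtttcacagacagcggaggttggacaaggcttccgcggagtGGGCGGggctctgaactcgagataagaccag
Pdcd1lg2 (chr19:29410669-29410918, + strand): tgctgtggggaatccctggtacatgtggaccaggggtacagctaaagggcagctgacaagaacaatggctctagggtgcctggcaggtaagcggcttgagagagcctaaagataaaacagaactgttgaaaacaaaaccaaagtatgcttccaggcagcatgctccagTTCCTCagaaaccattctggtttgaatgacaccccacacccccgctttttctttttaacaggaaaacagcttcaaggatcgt
Cd200 (chr16:45409054-45409303, - strand): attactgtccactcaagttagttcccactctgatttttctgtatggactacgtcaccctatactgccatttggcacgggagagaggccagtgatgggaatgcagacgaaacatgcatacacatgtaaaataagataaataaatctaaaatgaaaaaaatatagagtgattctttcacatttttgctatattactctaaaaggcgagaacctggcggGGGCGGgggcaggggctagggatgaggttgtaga
Havcr2 (chr11:46454681-46454930, + strand): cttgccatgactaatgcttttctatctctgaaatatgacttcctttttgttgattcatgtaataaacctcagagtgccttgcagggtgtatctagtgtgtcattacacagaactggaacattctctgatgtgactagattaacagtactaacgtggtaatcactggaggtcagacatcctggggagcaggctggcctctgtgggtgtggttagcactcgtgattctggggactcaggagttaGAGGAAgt
Cd47 (chr16:49855404-49855653, + strand): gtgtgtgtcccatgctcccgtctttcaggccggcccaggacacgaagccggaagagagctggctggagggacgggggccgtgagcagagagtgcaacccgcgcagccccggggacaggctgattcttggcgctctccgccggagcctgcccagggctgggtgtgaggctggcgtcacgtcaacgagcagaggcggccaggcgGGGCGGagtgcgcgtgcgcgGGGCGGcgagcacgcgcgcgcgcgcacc
Lgals9 (chr11:78984925-78985174, - strand): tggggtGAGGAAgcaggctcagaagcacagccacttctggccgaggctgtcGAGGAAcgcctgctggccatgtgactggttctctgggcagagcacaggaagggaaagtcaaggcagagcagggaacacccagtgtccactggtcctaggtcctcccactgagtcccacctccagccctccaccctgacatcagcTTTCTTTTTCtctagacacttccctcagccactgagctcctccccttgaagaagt
A GC box lay in the windows of Cd274, Cd200 and Cd47, with 2 in Cd47, and GAGGAA in those of Pdcd1lg2, Havcr2 and Lgals9, with 2 in Lgals9. The paired GAAA motif was found in Lgals9, 55 to 46 bases before the start. Of the 2 genes not shown, Vsir held 2 GC boxes and Cd80 held no match. Cd47 had a 2nd RefSeq entry, with a window at chr16:49855411-49855660 that is not shown and also held 2 GC boxes. The E box CACGTG was in no window of the 8 genes. Among all 32536 RefSeq windows of this length, 33.0% held a GC box, 23.4% GAGGAA, 6.04% an E box and 2.98% the paired GAAA motif. These letter matches describe the windows and carry no evidence of binding.

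Leukemia cells and macrophages differed in 5 of these genes far more than any macrophage library differed from another. In both leukemia cell libraries Cd274, Pdcd1lg2, Cd200, Cd86 and Havcr2 were at 0.0663 to 2.93 FPKM against 5.56 to 49.4 FPKM in the macrophage libraries, whereas Cd47, Lgals9 and Vsir were higher in leukemia cells and Sirpa was lower. Only Cd80 overlapped between the cell types. The other 9 genes did not overlap between the 2 leukemia cell and the 4 macrophage libraries, which was also so for 67.2% of all 18397 genes with 10 reads in at least 1 library. By the fold of 2, 5 of 10 members were lower and 0 higher in MA9 leukemia cells than in MA9 macrophages, where 20.0% of all tested genes passed, and 5 were lower and 1 higher in MA9/FE leukemia cells than in MA9/FE macrophages, where 22.8% passed. The median log2 difference of the members was -1.60 and -1.80, beside -0.01 and -0.03 over all tested genes. In the additive fit 9 of the 10 members differed between leukemia cells and MA9 macrophages by limma at an adjusted p under 0.05, beside 40.0% of all 18397 genes. The log2 difference of Havcr2 was -4.27 ± 0.13 (SE) with an adjusted p of 0.000102 and that of Cd274 was -3.55 ± 0.12 with an adjusted p of 0.000113. Cd47 was higher by 1.03 ± 0.12 with an adjusted p of 0.00316, and Cd80 differed by 0.02 ± 0.14 with an adjusted p of 0.925. Without the MA9 leukemia cell library 6 members passed, Lgals9, Sirpa and Vsir no longer among them, and without the MA9/FE one 5 passed, the calls of Cd47 (adjusted p = 0.0651 by limma) and of the same 3 genes being lost.

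**Figure D2:**
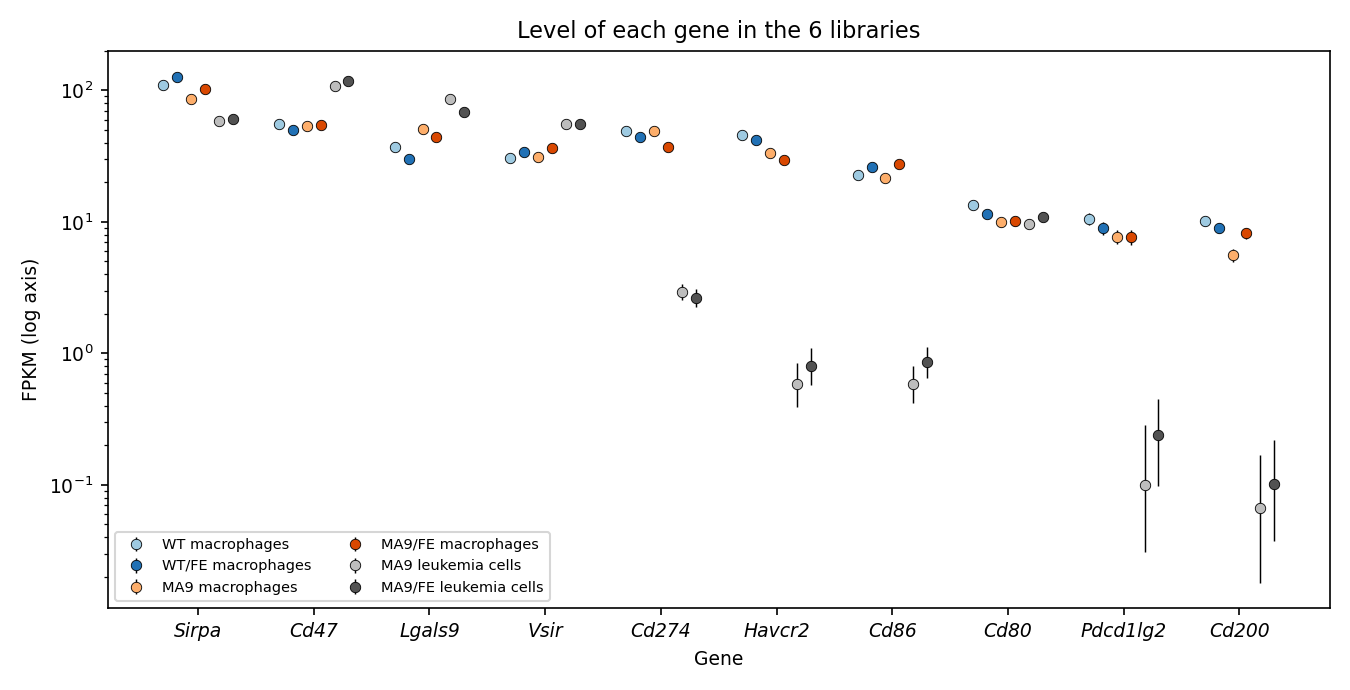
FPKM of each gene (log axis) in the 6 libraries, with bars for the 95% Poisson counting interval. Cd274, Havcr2, Cd86, Pdcd1lg2 and Cd200 lie at 0.0663 to 2.93 FPKM in the gray leukemia cell points, Cd47, Lgals9 and Vsir lie highest there, and the 4 macrophage points of each gene stay within a 1.82-fold range.

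Of the PD-1 ligand genes, Cd274 was the more abundant in all 6 libraries. Cd274 (ENSMUSG00000016496, chr19:29367455-29388095, GRCm38) stood at 49.0, 44.5, 49.4 and 37.1 FPKM in the macrophage libraries and at 2.93 and 2.64 in the leukemia cells. WT and MA9 macrophages, the highest 2, had overlapping counting intervals, as had the leukemia cell libraries at the bottom. Cd274 was 17.2 times lower in MA9 leukemia cells than in MA9 macrophages (14.9 to 20.0) and 14.3 times lower in MA9/FE leukemia cells than in MA9/FE macrophages (12.2 to 16.8). An unnamed antisense gene model, AC119228.1, shares 511 exon bases with Cd274, and whether the counting used strand is not given in the sources used here, so reads from the 2 cannot be told apart there.

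Pdcd1lg2 (ENSMUSG00000016498, chr19:29410919-29471161), the PD-L2 gene, lies next to Cd274 and was measured at 10.6, 8.94, 7.69 and 7.63 FPKM in the macrophage libraries. Its leukemia cell levels of 0.10 and 0.238 FPKM rest on about 4 and 8 reads. Adjacent levels among the 4 macrophage libraries had overlapping counting intervals. In leukemia cells it was 69.9 times lower (27.0 to 259) under PBS and 34.1 times lower (17.0 to 79.9) under iron. Its recovered reads were not whole, unlike those of the other 9 genes, so its intervals rest on rounded counts. The Cd274 level was 4.64 to 6.43 times that of Pdcd1lg2 in the macrophage libraries.

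Cd86 and Cd80, the B7 costimulators, parted in leukemia cells. Cd86 (ENSMUSG00000022901, chr16:36603869-36666081) stood at 22.7, 26.3, 21.4 and 27.7 FPKM in the macrophage libraries and at 0.587 and 0.857 in the leukemia cells, with 39 and 56 reads. Cd80 (ENSMUSG00000075122, chr16:38455561-38496335) was measured at 13.5, 11.4, 9.93 and 10.1 FPKM in the same macrophage libraries and at 9.67 and 10.9 in the leukemia cells. Cd86 was 37.3 times lower (27.1 to 52.7) in MA9 leukemia cells than in MA9 macrophages, while the Cd80 ratio of leukemia cells to macrophages was 0.952 (0.852 to 1.06) under PBS and 1.06 (0.947 to 1.18) under iron. Per length, Cd86 exceeded Cd80 by 1.68 to 2.74 times in the macrophage libraries and was 0.0607 to 0.0788 times the Cd80 level in leukemia cells.

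Havcr2, the TIM-3 gene (ENSMUSG00000020399, chr11:46454935-46481255), had the largest called difference on the log2(FPKM + 1) scale among the 10. Its levels were 45.6, 42.3, 33.2 and 29.5 FPKM in the macrophage libraries and 0.587 and 0.803 in the leukemia cells. It was 57.8 times lower (40.1 to 86.6) in leukemia cells under PBS and 37.5 times lower (27.3 to 53.0) under iron. Its ligand gene Lgals9 (ENSMUSG00000001123, chr11:78962974-78984946) ran the other way, at 37.2, 30.0, 50.8 and 44.5 FPKM in the macrophage libraries and 85.8 and 68.1 in the leukemia cells. No adjacent levels of Lgals9 had overlapping counting intervals. The leukemia cell to macrophage ratio of Lgals9 was 1.65 (1.56 to 1.75) under PBS and 1.50 (1.41 to 1.60) under iron.

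Cd200 (ENSMUSG00000022661, chr16:45382135-45409053) was near the detection limit in leukemia cells, with 4 reads (0.0663 FPKM) in the MA9 and 6 reads (0.101 FPKM) in the MA9/FE library. It stood at 10.1, 9.03, 5.56 and 8.18 FPKM in the macrophage libraries. The MA9 macrophage library was the lowest of the 4 and its counting interval overlapped with none of the others. The ratio of macrophages to leukemia cells was 85.7 (33.2 to 317) under PBS and 82.5 (37.6 to 226) under iron.

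Sirpa was the most abundant of the 10 genes in every macrophage library and Cd47 in both leukemia cell libraries. Cd47 (ENSMUSG00000055447, chr16:49800533-49915010), the ligand that holds back phagocytosis, stood at 55.6, 50.2, 54.1 and 54.3 FPKM in the macrophage libraries and at 108 and 117 in the leukemia cells. Sirpa (ENSMUSG00000037902, chr2:129592835-129632228), its receptor on phagocytes, was at 109, 126, 85.4 and 103 FPKM in the macrophage libraries and at 58.8 and 60.1 in the leukemia cells. Cd47 was 1.95 times (1.89 to 2.02) its macrophage level in leukemia cells under PBS and 2.12 times (2.06 to 2.19) under iron, the latter past the fold of 2. Sirpa was 1.49 times lower (1.43 to 1.54) and 1.74 times lower (1.68 to 1.80). The Cd47 level was 0.398 to 0.633 times that of Sirpa in macrophage libraries and 1.84 to 1.95 times in leukemia cells. Sirpa has close paralogs in the Sirpb1 genes, and how the counting shared reads among them was not tested.

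Vsir (ENSMUSG00000020101, chr10:60346851-60372684) lies within the span of Cdh23 on the opposite strand and shares no exon bases with it. Its levels were 30.9, 33.7, 31.4 and 36.3 FPKM in the macrophage libraries and 55.6 and 55.4 in the leukemia cells. The leukemia cell libraries were above every macrophage library and their intervals overlapped. The leukemia cell to macrophage ratio was 1.73 (1.65 to 1.82) under PBS and 1.50 (1.43 to 1.57) under iron.

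**Figure D3:**
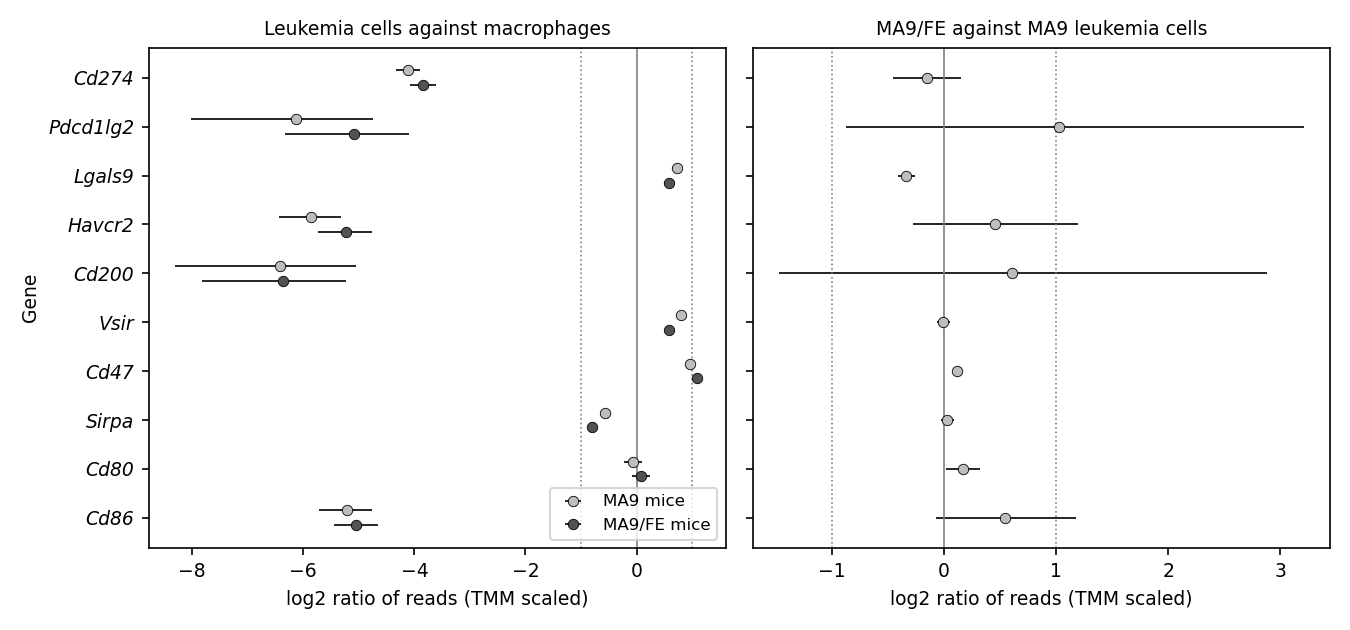
Log2 ratio of reads after TMM scaling (x axis) for each gene, with 95% counting intervals, for leukemia cells against macrophages (left) and MA9/FE against MA9 leukemia cells (right), dotted lines marking a fold of 2. On the left 5 genes lie far below 0 under both treatments, and on the right no gene with 10 reads lies past the dotted lines.

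The presence of leukemia was compared in macrophages of MA9 and WT mice, and again under iron. None of the 10 members differed by a fold of 2 in MA9 against WT macrophages, where 4.70% of all tested genes did, nor in MA9/FE against WT/FE macrophages, where 4.57% did. The members' median log2 difference was -0.20 and -0.13, beside -0.00 and 0.01 over all tested genes. In the additive fit none of the members passed for MA9 against WT macrophages by limma, beside 0.332% of all genes. At an unadjusted p under 0.05 by limma 2 of the 10 members passed, beside 3555 of all 18397 genes. The 2 members were Lgals9 and Havcr2, with adjusted p of 0.109 and 0.171. Below the fold of 2, Lgals9 was higher with leukemia, 1.38 times (1.29 to 1.48) under PBS and 1.51 times (1.39 to 1.63) under iron. Havcr2 was lower, by 1.36 times (1.28 to 1.45) and 1.41 times (1.31 to 1.51), and Sirpa was lower by 1.26 times (1.23 to 1.30) and 1.21 times (1.18 to 1.25). The Lgals9 level was 0.710 to 0.815 times that of Havcr2 in macrophages of mice without leukemia and 1.51 to 1.53 times with leukemia.

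Cd200 showed the largest difference among the members in these macrophage comparisons, being 1.80 times lower (1.57 to 2.07) in MA9 than in WT macrophages. Under iron the Cd200 ratio of MA9/FE to WT/FE was 0.919 (0.807 to 1.05), an interval that includes 1. Pdcd1lg2 was 1.36 times lower (1.16 to 1.60) and Cd80 1.35 times lower (1.22 to 1.49) in MA9 than in WT macrophages. Cd274 had a ratio of 1.02 (0.970 to 1.07) under PBS and was 1.18 times lower (1.12 to 1.25) with leukemia under iron. The B cell markers took 0.803%, 0.789%, 0.515% and 0.748% of reads in the macrophage libraries, the same order of libraries as for Cd200. Cd80 also had this order, though its counting intervals in MA9 and MA9/FE macrophages overlapped. The 15 neutrophil markers took 0.0030%, 0.0025%, 0.196% and 0.0980% of reads, and 13 and 12 of them were higher with leukemia by a fold of 2 under PBS and iron. The 8 plasma cell markers took 0.252%, 0.248%, 0.507% and 0.601%, with all 8 above their level without leukemia and 4 and 3 past the fold. Of 9 erythroid markers, at 0.010%, 0.0185%, 0.0330% and 0.0455% of reads, 8 and 7 were past the fold. The 8 monocyte markers took 0.0268%, 0.0248%, 0.0557% and 0.0443%. Of these, 3 were higher by the fold in each comparison. In each, 5 of the 8 were above their level without leukemia and the rest below it, none of those by a fold of 2. The part of any of these in the leukemia differences was not tested.

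Iron was compared in macrophages without and with leukemia and in leukemia cells. None of the 10 members differed by a fold of 2 between WT/FE and WT macrophages (1.27% of all tested genes did) or between MA9/FE and MA9 macrophages (2.46% did). In MA9/FE against MA9 leukemia cells 8 members held 10 reads in a library and none passed, beside 0.863% of all tested genes. The median log2 difference of the tested members was -0.15, 0.05 and 0.07, beside -0.01, 0.01 and 0.00 over all tested genes. In the additive fit no member passed for iron over the 3 pairs, nor did any of the 18397 genes (0.00%) by limma, and at an unadjusted p under 0.05 there were 633 genes. Among them were the members Cd86, higher with iron by 0.26 ± 0.09 (SE) on the log2 scale, and Lgals9, with a log2 difference of -0.27 ± 0.09, both at an adjusted p of 0.989 by limma. The MA9/FE against MA9 and the leukemia against control comparisons share libraries, so their values are not independent of each other.

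Among the costimulators Cd86 was higher with iron in macrophages, 1.15 times (1.08 to 1.24) without and 1.33 times (1.23 to 1.43) with leukemia. Sirpa was likewise higher, 1.15 times (1.12 to 1.18) and 1.23 times (1.19 to 1.27), as was Vsir, 1.09 times (1.03 to 1.15) and 1.19 times (1.13 to 1.25). Cd274 was lower with iron, by 1.11 times (1.05 to 1.16) without and 1.30 times (1.23 to 1.37) with leukemia. Lgals9 was lower by 1.24 times (1.15 to 1.35) and 1.11 times (1.04 to 1.19), and Havcr2 by 1.08 times (1.02 to 1.15) and 1.09 times (1.02 to 1.18). These 6 genes went the same way in both pairs of macrophage libraries, and all these ratios were under a fold of 2. The share of all genes that kept their direction in both pairs was not computed. Whether the members kept theirs more often than other genes was therefore not tested.

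The other 4 had ratios on opposite sides of 1 in the pairs, and for Cd47, Cd80 and Pdcd1lg2 the MA9 interval included 1. Cd200 was 1.51 times higher (1.30 to 1.75) in MA9/FE than in MA9 macrophages and had a ratio of 0.889 (0.790 to 1.0) in WT/FE against WT. Cd47 was 1.11 times lower (1.07 to 1.15) with iron in WT and had a ratio of 1.03 (0.991 to 1.07) in MA9 macrophages. Cd80 was 1.18 times lower (1.07 to 1.31) with iron in WT and had a ratio of 1.04 (0.930 to 1.17) in MA9 macrophages. Pdcd1lg2 was 1.19 times lower (1.02 to 1.39) in WT and had a ratio of 1.02 (0.852 to 1.22) in MA9 macrophages.

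Macrophage marker reads moved with iron in the same libraries. Their shares of reads were 0.158%, 0.294%, 0.157% and 0.333% in the macrophage libraries, and all 17 macrophage markers were higher with iron in both pairs, 6 and 10 of them by a fold of 2. In macrophages of leukemic mice all 16 B cell markers were higher with iron, at 0.515% of reads under PBS and 0.748% under iron, and neutrophil markers took 0.196% and 0.0980%. Dendritic cell markers took 0.174%, 0.160%, 0.142% and 0.123% of reads in the macrophage libraries. The part of these markers in the iron differences of Cd86, Sirpa, Vsir, Cd200 and Cd274 was not tested.

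**Figure D4:**
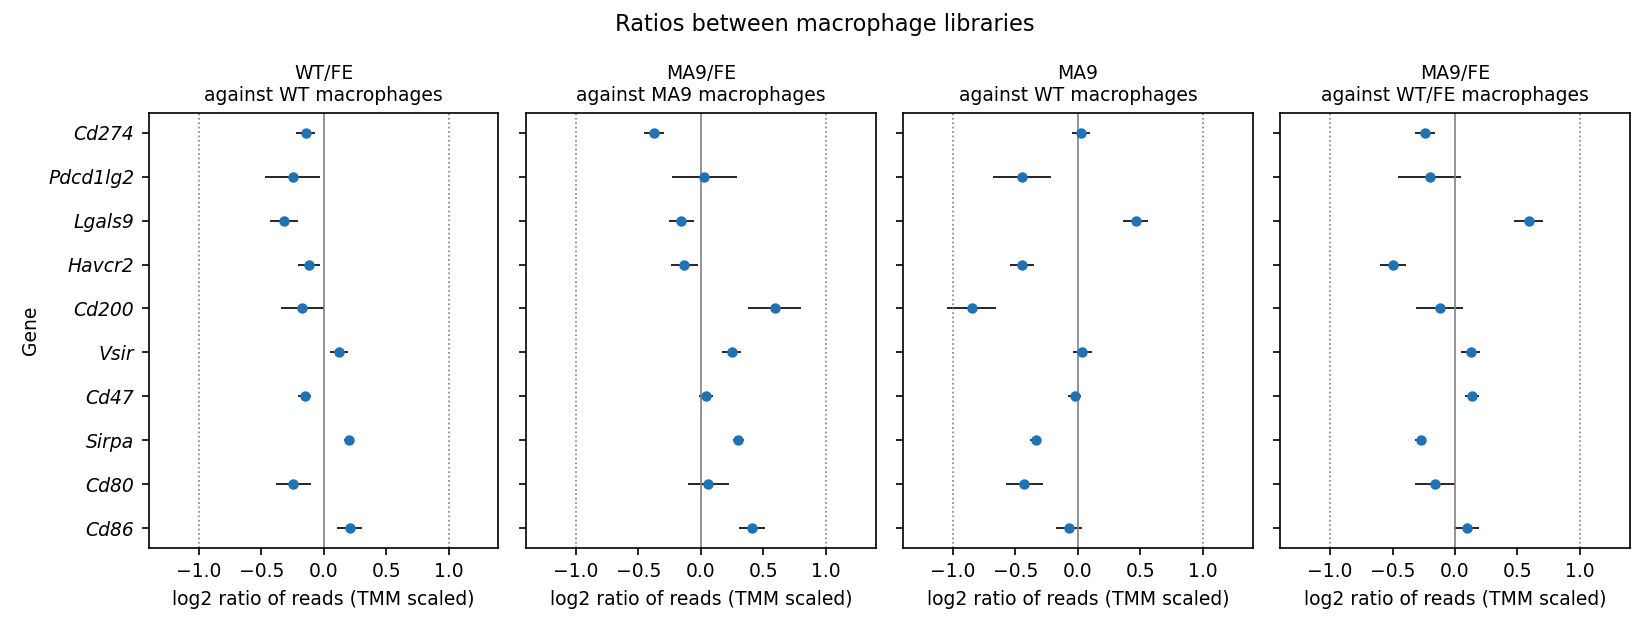
Log2 ratio of reads after TMM scaling (x axis) for each gene in the 4 comparisons between macrophage libraries, with 95% counting intervals and dotted lines at a fold of 2. No point reaches a dotted line, the farthest being Cd200 in MA9 against WT macrophages at -0.85.

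In leukemia cells Lgals9 was 1.26 times lower (1.20 to 1.33) with iron, at 68.1 against 85.8 FPKM. Cd47 was 1.09 times higher (1.06 to 1.11) and Cd80 1.12 times higher (1.01 to 1.25). Sirpa and Vsir had ratios of 1.02 (0.983 to 1.06) and 0.996 (0.957 to 1.04). Cd274, at 193 and 171 reads, had a ratio of 0.901 (0.729 to 1.11), and the ratios of Cd86 and Havcr2 were 1.46 (0.953 to 2.26) and 1.37 (0.824 to 2.29), so a difference in these 3 was not detectable at this depth. Pdcd1lg2 and Cd200 were under 10 reads in both libraries.

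The T cell and myeloid receptors of PD-L1, CD80, CD86 and CD200 were measured at levels of at most 5.50 FPKM. Pdcd1, which encodes PD-1, stood at 0.557, 0.216, 1.52 and 1.90 FPKM in the macrophage libraries, 0.114 in MA9 leukemia cells and 0 in MA9/FE leukemia cells. Ctla4, the inhibitory receptor for CD80 and CD86, was at 1.47, 2.50, 5.07 and 5.50 FPKM in the same macrophage libraries and at 0.0709 and 0 in the leukemia cells. Cd28, the costimulatory receptor, was at 1.38, 1.27, 4.27 and 2.84 FPKM in the macrophage libraries and at 4.24 and 5.17 in the leukemia cells. Cd200r1, the receptor for CD200, stood at 4.13, 5.12, 3.16 and 4.94 FPKM in macrophage libraries and at 2.30 and 2.02 in leukemia cells. On the log2(FPKM + 1) scale Ctla4 was higher by 1.31 and Cd28 by 1.15 in MA9 than in WT macrophages, and Pdcd1 by 1.26 in MA9/FE than in WT/FE macrophages. The 12 T cell markers took 0.0294% to 0.0374% of reads in all 4 macrophage libraries. In MA9/FE against WT/FE macrophages 10 of the 12 were higher, 5 by a fold of 2, with a median log2 difference of 0.45, and in MA9 against WT macrophages 6 were higher, 1 by a fold of 2, with a median of -0.01. Their part in the Pdcd1, Ctla4 and Cd28 differences was not tested.

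Of 61 further genes of these pathways, none passed the fold of 2 between WT/FE and WT macrophages among 58 tested, beside 1.27% of all tested genes. With leukemia 4 of 59 were higher in macrophages under PBS, beside 4.70% of all tested genes, and 2 of 58 under iron, beside 4.57%, and 0 were lower in either. Tigit, an inhibitory receptor of T and NK cells, was in both sets, at 3.34, 4.79, 12.6 and 12.4 FPKM in the macrophage libraries. Thbs1, whose product thrombospondin-1 binds CD47, stood at 0.202, 0.196, 1.77 and 0.256 FPKM in the macrophage libraries and at 8.62 and 3.43 in the leukemia cells. It was the 1 gene of the 61 that passed with iron, lower in the iron library both for MA9 macrophages and for leukemia cells. These were 1 of 59 and 1 of 50 tested, beside 2.46% and 0.863% of all tested genes. The neutrophil markers also took a smaller share of reads in both MA9/FE libraries than in their MA9 partners, 0.0980% against 0.196% in macrophages and 0.693% against 0.836% in leukemia cells, and their part in the Thbs1 difference was not tested.

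Against macrophages, 4 of the 59 tested pathway genes were higher and 17 lower in MA9 leukemia cells, beside 20.0% of all tested genes past the fold, and 4 of 58 were higher and 21 lower in MA9/FE leukemia cells, beside 22.8%. In the additive fit 9 of 59 were higher and 27 lower by limma, beside 40.0% of all genes, and 0 passed for iron or for MA9 against WT macrophages. Among other costimulatory ligands Icosl, the ICOS ligand, stood at 68.6 to 115 FPKM in macrophage libraries and 13.1 to 14.8 in leukemia cells, and Cd40 at 23.8 to 34.5 and 1.13 to 1.43. Nectin2, a ligand of inhibitory and activating receptors, was at 0.356 to 0.606 FPKM in macrophage libraries and 2.77 to 2.93 in leukemia cells. Among inhibitory receptors Lag3 stood at 13.5 to 16.8 FPKM in macrophage libraries and 0.0797 to 0.235 in leukemia cells, and Btla at 72.4 to 146 and 12.5 to 14.0. Siglece stood at 14.2 in MA9 macrophages and 11.1 in MA9 leukemia cells, and at 28.4 and 5.27 under iron, where alone it passed the fold. Its log2 difference with iron was 0.99 in MA9 macrophages and -0.95 in leukemia cells, both under a fold of 2. In the list around phagocytosis, B2m, the light chain of MHC class I, was at 1928 to 2995 FPKM in macrophage libraries and 992 to 1232 in leukemia cells. Sirpb1a was at 29.3 to 45.1 and 0.529 to 0.880 FPKM, Slamf7 at 37.8 to 54.0 and 1.90 to 2.44, and Siglecg at 67.4 to 115 and 6.03 to 7.51. Others ran the other way, among them Calr at 167 to 283 and 548 to 587. Of the 14 genes of this list, 2 were higher and 4 lower past the fold under PBS, and 2 higher and 5 lower under iron. B2m passed the fold only under iron. Among regulators of PD-L1, Jak2 stood at 49.9 to 69.5 FPKM in macrophage libraries and 14.6 to 15.3 in leukemia cells, and the interferon response factor gene Irf1 at 54.9 to 63.5 and 18.7 to 30.6.

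The genes with the most similar profiles over the 6 libraries were found by the root mean square distance of log2(FPKM + 1), centered, among 11228 genes. They describe only these 6 libraries, with 1 per condition. For Cd274 they were St8sia6, Zbtb46 and Gpr141b, at distances of 0.07, 0.11 and 0.12, where Zbtb46 is a dendritic cell transcription factor and 1 of the dendritic cell markers. For Pdcd1lg2 they were Kynu, Foxo1 and Ube2e2, for Cd200 Shisa5, Styxl1 and Gpr34, for Cd86 Bcar3, Gngt2 and Gramd3, and for Havcr2 Relb and Ikzf3. Those nearest to Cd47 were Fam107b, Fdps and Pfkl, with Fam107b at a distance of 0.04, and those nearest to Lgals9 were Atp5k, Nme6 and Pnp. Sirpa had Plgrkt, Rufy2 and Zfp945, Cd80 had Fam98c, Stam2 and Arsk, and Vsir had Znf41-ps, Tbc1d13 and Fam221a.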

How the data were processed

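RNA-seq of 6 libraries, 1 per condition, was analysed. The authors deposited FPKM values per Ensembl gene, and the submitters' processing notes name mm10, Bowtie2 (version 2.2.5) and RSEM. Whether counting used strand is not given in the sources used here. FPKM multiplied by GENCODE M21 exon length gave whole reads, within 0.05, for 96.8% to 97.0% of values, and reads and depth were recovered from these steps. Pairs of libraries were compared on log2(FPKM + 1) after TMM scaling (trims of 0.3 and 0.05), in genes with at least 10 reads in 1 library, at a fold of 2. Single pairs have no test. An additive fit with terms for cell group (3 levels) and iron was made after the data were seen, with limma 3.58.1 in R 4.3.3 (moderated statistics with a variance trend, Benjamini-Hochberg adjustment over 18397 genes). Counting intervals (95%) were exact binomial for ratios, Poisson for levels and Wilson for shares. The calculations were checked on simulated data. Python 3.11.15, pandas 2.3.3, numpy 2.4.6, scipy 1.17.1, statsmodels 0.14.6 and matplotlib 3.10.9 were used. Named genes were the 10 members, pathway genes past the fold (at most 6 per list by size), the receptors Pdcd1, Cd28, Ctla4 and Cd200r1, and the 3 nearest profiles of each member, of which 1 is not reported here. The members and gene lists were chosen with earlier results of these data known. Alternatives for the differences were total count and median of ratios scaling, scaling without hemoglobin and immunoglobulin genes, a pseudocount of 0.1, no minimum or 50 reads, and removal of a length trend. Marker shares were also computed without mitochondrial reads. In the macrophage libraries the B cell markers then took 0.521% to 0.813% and the macrophage markers 0.159% to 0.339%. The NK cell, plasma cell, monocyte and erythroid lists took 0.0005% to 0.0263%, 0.0252% to 0.601%, 0.0248% to 0.317% and 0.0100% to 0.0455% of reads.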

Additional observations from a re-analysis of the deposited data

Results flagged for a closer look

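Cd200 differed in its direction with iron between macrophages without and with leukemia. The log2 difference was -0.15 in WT/FE against WT and 0.52 in MA9/FE against MA9 macrophages, a gap of 0.670, and the counting intervals of the ratios lay on opposite sides of no difference, the first ending just short of it. The B cell markers took 0.803%, 0.789%, 0.515% and 0.748% of reads in the WT and WT/FE and then the PBS and iron MA9 macrophage libraries. Cd47 had log2 differences with iron of -0.15 in WT macrophages and 0.12 in leukemia cells, a gap of 0.268. Cd80 had log2 differences of -0.23 in WT macrophages and 0.15 in leukemia cells, a gap of 0.380. With 1 library per condition these differences between the iron effects were not tested, and all 3 lie under a fold of 2.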

How the results depend on the processing

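No paired analysis was possible because each condition has 1 library, except that the additive fit pairs PBS and iron libraries within 3 cell groups. In that fit no member passed for iron or for MA9 against WT macrophages without the variance trend or without any 1 library, and for leukemia cells against MA9 macrophages 5 to 9 passed when 1 library was left out, the lowest without MA9/FE leukemia cells. Over all genes the fit called 0 for iron throughout, 3175 to 7790 for leukemia cells, beside 7358, and 7 to 360 for MA9 against WT macrophages, beside 61, the latter 28 without the trend. The count of members past the fold of 2 did not differ in any of the 7 comparisons under any alternative. Of 70 member differences, 68 kept their sign in all 7 settings, and the largest that did not was 0.054 on the log2 scale. No called difference changed direction. Counts over all genes moved. With a pseudocount of 0.1 they were 784 (WT/FE against WT macrophages), 1980 and 2083 (leukemia against none in macrophages, under PBS and iron), 1499 (MA9/FE against MA9), 631 (MA9/FE against MA9 leukemia cells), 5809 and 6498 (leukemia cells against macrophages under PBS and iron), beside 213, 795, 758, 406, 133, 3407 and 3832. With no minimum of reads they were 481 for WT/FE against WT and 731 for MA9/FE against MA9 macrophages and 375 in leukemia cells, and with at least 50 reads 116, 234 and 60. The split of higher and lower genes moved when a length trend was removed, from 486 and 272 to 330 and 405 in MA9/FE against WT/FE and from 198 and 208 to 128 and 298 in MA9/FE against MA9 macrophages. Counts of 4 to 8 reads limit Cd200 and Pdcd1lg2 in leukemia cells.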
